A study of Drosophila melanogaster with 2 samples.

Results

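The genes described here are 10 autophagy genes of Drosophila melanogaster, taken by name from the annotation out of 13945 protein-coding genes. What was measured at them is the chromatin occupancy of Hr83. Hr83 is an orphan nuclear receptor, and it was profiled by ChIP-seq, in which the DNA bound to a protein is recovered with an antibody and sequenced. The series has 1 group: wandering larvae of the last instar, whole animals with males and females pooled, from a transgenic strain that stably expresses Hr83 fused to GFP at its C-terminus. Chromatin was sonicated and precipitated with an antibody against GFP, in 2 biological replicates numbered 3 and 4. The labels do not give the promoter of the transgene, and whole larvae mix all tissues, so no cell type can be assigned to a region. A group without the tagged protein was not analysed here, and no p-value was computed.

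Autophagy delivers cytoplasm to the lysosome inside a vesicle, the autophagosome. A kinase complex of Atg1, Atg13 and Atg17 starts it, Atg9 and Atg2 supply membrane, and Atg6 belongs to the lipid kinase complex that marks the growing membrane. Atg7, Atg3 and Atg5 act in the conjugation systems that couple the ubiquitin-like protein Atg8a to that membrane. In the fly, ecdysone starts programmed autophagy in the larval fat body at the wandering stage.

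Hr83-GFP regions lay at most of these genes, and the strongest, inside Atg7, lay beside the start of another gene. All positions are on the dm6 assembly. The authors deposited regions with a summit, the position of highest enrichment, and a signal, which is their own score and serves here only to rank regions within a list. A thresholded list of 4797 regions was set by a test of reproducibility between the replicates, the irreproducible discovery rate (IDR). Relaxed lists of 30000 regions each, called on the pooled replicates and on each replicate, also hold weak regions and background. The thresholded regions were exactly the 4797 strongest of the pooled list. A call or its absence thus matches a cut on pooled signal, and a kept region can still rank low in 1 replicate. With a summit in the gene or within 1 kb of it, 8 of the 10 autophagy genes had a thresholded region, against 32.6% of all protein-coding genes and 38.0% of those between the shortest member (1603 bp) and the longest (20688 bp). Atg3 and Atg6 had none. The 8 genes held 17 thresholded regions, with signals between 65.4 and 643 and a median of 78.9, against a median of 93.8 over the complete thresholded list. Of the 17, 5 lay above that median and 12 below it.

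At the promoter the count was lower. Atg1, Atg2, Atg5, Atg8a, Atg9 and Atg17, 6 of 10 genes, had a thresholded summit within 500 bp of an own transcription start site (TSS), against 24.2% of all protein-coding genes. The calls of Atg7 and Atg13 came from regions elsewhere. In the pooled relaxed list, all 10 genes had a region within 500 bp of an own TSS, against 55.2% of all protein-coding genes, and all 10 had one in the gene or within 1 kb, against 71.3%. The strongest pooled region within 500 bp of the TSS had a signal of 107 at Atg2, 92.0 at Atg9, 88.4 at Atg8a, 78.9 at Atg17, 78.8 at Atg1 and 72.4 at Atg5. Below the lowest thresholded signal of 63.3 were Atg7 with 60.9, Atg13 with 57.4, Atg3 with 52.8 and Atg6 with 48.9. The 10 promoters thus lay on both sides of the threshold. The values of Atg2, Atg17, Atg7 and Atg3 are from summits nearer to the TSS of another coding gene than to their own. At Atg6 the summit was 8 bp from its own TSS and 7 bp from that of Pisd. The summits nearest to the own TSS had signals of 70.4 at Atg2, 77.5 at Atg17 and 25.7 at Atg3.

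**Figure D1:**
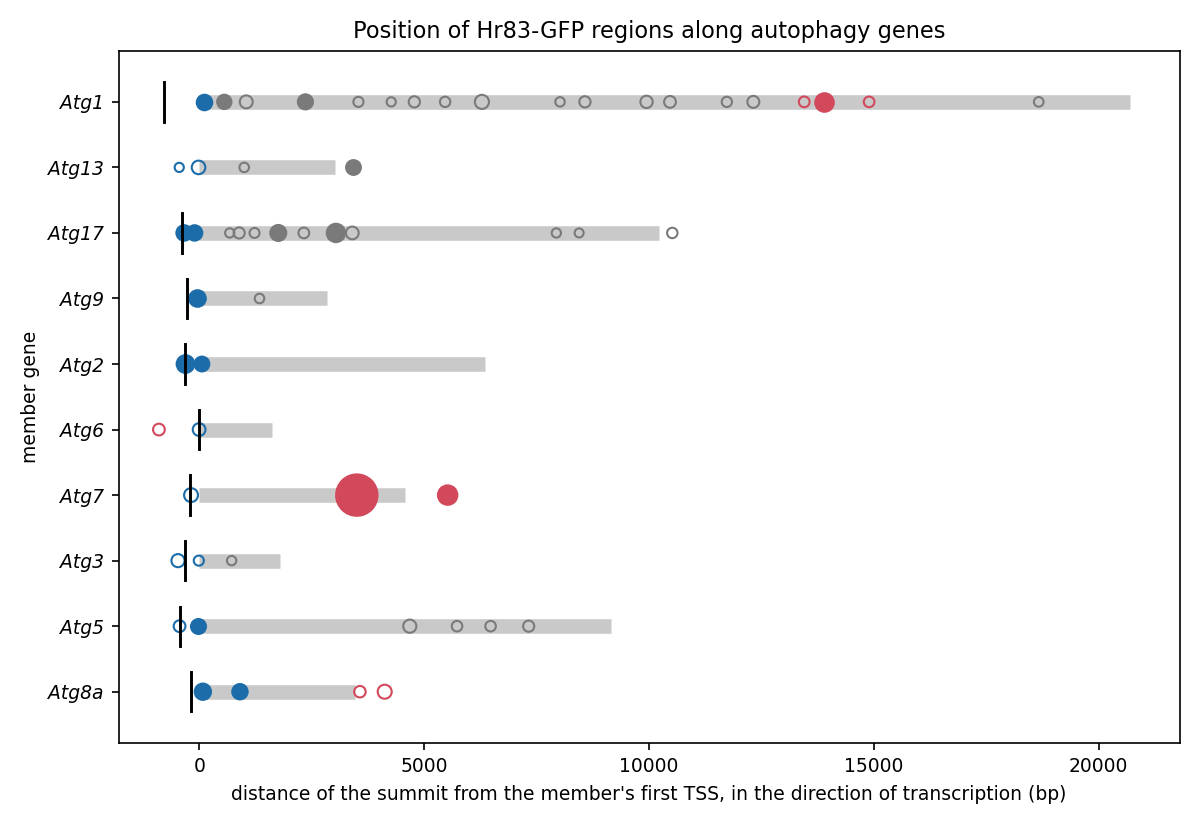
Summits of pooled Hr83-GFP regions (circles, with area rising with signal; filled where thresholded, open where not) along the 10 autophagy genes (grey bars), in bp from the first TSS in the direction of transcription. Blue marks summits within 500 bp of the member's own TSS, red those within 500 bp of another coding TSS only, grey the rest, and a black tick the TSS of a head-to-head neighbour; the largest circle, with signal 643, lies in Atg7 at the TSS of CG5335.

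The members share an arrangement that the choice of genes did not use. Of the 10, 9 lie head to head with another protein-coding gene, with both first TSSs within 1 kb and transcription running apart, against 33.3% of all protein-coding genes. Only Atg13 does not. The neighbours are Sap130 (785 bp between the TSSs of it and Atg1), CG12093 (330 bp, Atg2), Nufip (319 bp, Atg3), Dok (443 bp, Atg5), Pisd (0 bp, Atg6), Sec6 (204 bp, Atg7), BTBD9 (198 bp, Atg8a), CG7747 (269 bp, Atg9) and Xe7 (378 bp, Atg17). A thresholded region within 500 bp of the TSS was found at 6 of these 9 members, against 38.1% of all head-to-head genes and 17.3% of the other protein-coding genes. Which of the paired genes such a region belongs to cannot be told apart from position. Of the 17 thresholded regions at members, 9 had the summit within 500 bp of the member's TSS, and 7 of these 9 also lay within 500 bp of another coding TSS. Placed within the member, 5 of the 17 summits were upstream, 4 in a 5' UTR, 6 in an intron and 2 downstream. A coding TSS of either kind lay within 500 bp of 12 of the 17, against 61.3% of the complete thresholded list.

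Among the genes of the initiating kinase complex, Atg1 (FBgn0260945, chr3L:12784429-12805116, minus strand), which encodes the kinase, held 4 thresholded and 19 pooled regions, the most pooled regions of any member. It is also the longest member. Its strongest region (signal 119, rank 1418 of 4797) had the summit at 12791231, in an Atg1 intron 13885 bp from the Atg1 TSS. This summit lies 13 bp from the TSS of CG42709, a gene on the opposite strand inside Atg1. It ranked 1941 in replicate 3 (signal 45.2) and 1280 in replicate 4 (signal 76.6). At the Atg1 promoter itself the summit was at 12805017, in the 5' UTR 99 bp from the TSS, with a signal of 78.8 in the pooled list. That region had a signal of 78.5 and rank 1213 in replicate 4, and 17.2 and rank 10540 in replicate 3. The TSS of Sap130, which encodes a subunit of a histone deacetylase complex, was 885 bp from it. The remaining Atg1 regions had signals of 65.4 (5' UTR, 552 bp from the TSS) and 74.2 (intron, 2356 bp from it). The 5' UTR region stood at rank 3600 in replicate 3 and 4156 in replicate 4, and the intronic one at 4472 in replicate 3 and 6327 in replicate 4.

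Atg17 (FBgn0037363, chr3R:5669713-5679930, plus strand), the scaffold of the complex and counterpart of mammalian FIP200, also held 4 thresholded regions. A pair of them lay in the 378 bp between Atg17 and Xe7, with summits at 5669372 (signal 78.9) and 5669604 (signal 77.5), 341 and 109 bp upstream of Atg17. They lay 38 and 270 bp from the TSS of Xe7. In replicate 3 the summit on the Xe7 side was stronger, with a signal of 49.99 and rank 1562 against 20.6 and rank 7763 for the summit on the Atg17 side. Replicate 4 had 1 region there, with its summit at 5669624 on the Atg17 side (signal 62.9, rank 2020). The strongest Atg17 region (signal 116, rank 1484) was intronic, 3035 bp from the TSS, and ranked 3128 in replicate 3 and 1627 in replicate 4. The other intronic region (signal 84.6, 1753 bp from the TSS) rested on replicate 4, where it ranked 1780, against 26480 in replicate 3. The bases at the Atg17-side summit and at the strongest intronic summit are shown, since they hold a promoter element and a FoxO-type site. They were read from the RefSeq sequence of the dm6 assembly and are printed 5' to 3' on the plus strand, cut back to bases outside annotated exons, and capitals mark motif matches. The capitals are the DRE, an element of housekeeping promoters, in the promoter sequence and the FoxO-type element, which reads GTAAACA on the other strand, in the intron sequence.
Atg17 promoter, chr3R:5669504-5669704: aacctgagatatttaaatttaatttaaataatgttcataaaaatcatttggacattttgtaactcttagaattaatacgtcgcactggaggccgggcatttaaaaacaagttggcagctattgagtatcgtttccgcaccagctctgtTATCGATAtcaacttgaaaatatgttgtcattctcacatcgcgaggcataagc
Atg17 intron, chr3R:5672734-5672848: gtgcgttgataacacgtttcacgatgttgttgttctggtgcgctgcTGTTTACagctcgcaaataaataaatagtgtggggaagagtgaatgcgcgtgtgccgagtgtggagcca

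Atg13 (FBgn0261108, chr3R:8349815-8352817, plus strand), the regulatory subunit that binds Atg1, had 1 thresholded region, beyond its 3' end. The summit at 8353236 lay 3421 bp from the Atg13 TSS and 3742 bp from the next coding TSS, that of stck. Its signal was 70.7 (rank 4031), with rank 2597 in replicate 3 and 5862 in replicate 4. At the Atg13 TSS the pooled list had a region 21 bp upstream with a signal of 57.4 (rank 5599 of 30000), which ranked 3744 in replicate 3 and 11849 in replicate 4. The bases around the downstream summit, shown because this thresholded region is the farthest of the 17 from any coding TSS and are given on the plus strand, matched none of the motifs searched.
Downstream of Atg13, chr3R:8353136-8353336: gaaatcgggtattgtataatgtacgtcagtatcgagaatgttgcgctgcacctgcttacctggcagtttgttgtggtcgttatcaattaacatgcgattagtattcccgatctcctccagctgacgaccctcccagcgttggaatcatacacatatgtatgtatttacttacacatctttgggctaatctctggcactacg

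Of the membrane suppliers, Atg2 (FBgn0044452, chr3L:2774338-2780677, plus strand), a lipid transfer protein, had 2 thresholded regions and no other pooled region. The summit at 2774027 (signal 107, rank 1819) was 20 bp from the TSS of CG12093 and 311 bp upstream of Atg2. The summit at 2774392 (signal 70.4, rank 4057) was in the Atg2 5' UTR, 54 bp from its TSS. The replicates put these in opposite order. In replicate 3 the CG12093-side region had a signal of 80.2 and rank 489, and the Atg2-side region 22.7 and rank 6622. In replicate 4 the CG12093-side region had a signal of 27.4 and rank 7946, and the Atg2-side region 52.3 and rank 2973. The bases from CG12093 towards Atg2, on the plus strand, are shown because they hold 1 of the 2 AAGTCA matches among the members' regions, a hexamer bound by receptors of the class of Hr83; it reads TGACTT on this strand, in capitals, 11.5 bp from the summit.
Between CG12093 and Atg2, chr3L:2774008-2774127: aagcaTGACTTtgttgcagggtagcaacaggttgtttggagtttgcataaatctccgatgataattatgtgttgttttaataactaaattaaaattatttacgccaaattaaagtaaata

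Atg8a (FBgn0052672, chrX:10764878-10768338, minus strand), the ubiquitin-like protein that is coupled to the membrane and is widely used to mark autophagosomes, had 2 thresholded regions, each near 1 of its 3 annotated TSSs. The summit at 10768263 (signal 88.4, rank 2675) was in the 5' UTR, 75 bp from the outermost TSS and 274 bp from that of BTBD9. It held both a DRE, 19.5 bp from the summit, and an AAGTCA match, 4.5 bp from it. In replicate 3 this region ranked 2495 with its summit 15 bp away, and in replicate 4 it ranked 5556 with its summit 125 bp away, at 10768388, between Atg8a and BTBD9. The summit at 10767438 (signal 77.3, rank 3457) was 132 bp upstream of the middle TSS, in an intron of the longer transcript, and ranked 2068 in replicate 3 and 4293 in replicate 4. A further pooled region downstream of Atg8a (signal 62.1, rank 4967) fell just below the threshold, 18 bp from the TSS of Tango5, which encodes a membrane protein of autophagosome formation. The bases at the inner Atg8a summit, on the minus strand, are shown and matched no motif searched. Those at the outer summit are not shown because that summit lies in an exon.
Inner promoter of Atg8a, chrX:10767338-10767538: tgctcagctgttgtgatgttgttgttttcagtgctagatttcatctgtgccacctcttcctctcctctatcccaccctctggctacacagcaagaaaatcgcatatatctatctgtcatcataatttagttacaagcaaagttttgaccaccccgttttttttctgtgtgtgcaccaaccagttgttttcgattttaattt

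Atg5 (FBgn0029943, chrX:7314622-7323770, minus strand), which joins Atg12 and Atg16 in the complex that places Atg8a, lies within the span of CG1677. It had 1 thresholded region, with the summit at 7323802, 32 bp upstream of Atg5 and 412 bp from the TSS of Dok. Its signal was 72.4 (rank 3865), and its ranks were close, 3383 in replicate 3 and 3649 in replicate 4. A weaker pooled region (signal 39.8) lay 1 bp from the TSS of Dok. Atg3 (FBgn0036813, chr3L:18748687-18750483, plus strand), the enzyme that transfers Atg8a to lipid, had no thresholded region. Its promoter had pooled regions 478 bp upstream (signal 52.8, rank 6331 of 30000, and 158 bp from the TSS of Nufip) and 15 bp upstream (signal 25.7, rank 17514). The Nufip-side region ranked 6764 in replicate 3 and 6111 in replicate 4. The promoters of both genes are shown, Atg5 on the minus and Atg3 on the plus strand, because they are the called and the uncalled example of a head-to-head pair; a DRE match at Atg3 is in capitals.
Between Atg5 and Dok, chrX:7323771-7323902: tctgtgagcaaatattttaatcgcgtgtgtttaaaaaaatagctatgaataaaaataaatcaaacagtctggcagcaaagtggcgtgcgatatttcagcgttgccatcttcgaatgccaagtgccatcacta
Between Nufip and Atg3, chr3L:18748572-18748686: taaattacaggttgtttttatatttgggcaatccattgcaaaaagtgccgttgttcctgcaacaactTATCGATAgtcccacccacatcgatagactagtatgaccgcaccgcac

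Atg6 (FBgn0264325, chr3R:24049180-24050782, minus strand), the counterpart of Beclin 1, differed between the replicates. Its TSS and that of Pisd, a phosphatidylserine decarboxylase gene, are on adjacent bases. In replicate 3 a region there had a signal of 52.5 and rank 1403 of 30000. In replicate 4 no region was listed within 500 bp of the Atg6 TSS, and the strongest at the gene had a signal of 12.1 and rank 21343. The pooled list gave a signal of 48.9 (rank 7075), with the summit at 24050790, and Atg6 was not called. A region at a second Pisd TSS, 902 bp from that of Atg6, likewise ranked 4572 in replicate 3 and overlapped no replicate 4 region.

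Atg9 (FBgn0034110, chr2R:16294400-16297232, plus strand), the transmembrane protein of the vesicles that seed the autophagosome, had 1 thresholded region, at its promoter. The summit at 16294338 was 62 bp upstream of Atg9 and 208 bp from the TSS of CG7747, with a signal of 92.0 (rank 2495). The replicates placed it alike, at rank 1856 with a signal of 46.2 in replicate 3 and at rank 2188 with a signal of 60.5 in replicate 4.

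Atg7 (FBgn0034366, chr2R:18620466-18625044, minus strand), the activating enzyme of both conjugation systems, carried the strongest region of the set. It had a signal of 643 and ranked 14 of 4797, and it was strong in both replicates, at rank 12 with a signal of 334 in replicate 3 and at rank 20 with a signal of 317 in replicate 4. Its summit at 18621545 lay 3499 bp from the Atg7 TSS, in an Atg7 intron, and 4 bp from the TSS of CG5335, a gene on the opposite strand inside Atg7. The other thresholded region (signal 131, rank 1127) lay downstream of Atg7, 197 bp from the TSS of CG5493, and ranked 1921 in replicate 3 and 888 in replicate 4. At the Atg7 promoter, shared with the exocyst gene Sec6, the pooled region had a signal of 60.9 and rank 5110, below the threshold. Its summit was 188 bp upstream of Atg7 and 17 bp from the TSS of Sec6. Replicate 3 placed this promoter region at rank 3537 and replicate 4 at rank 13053. The call of Atg7 thus came from regions within 197 bp of the TSSs of other genes.

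**Figure D2:**
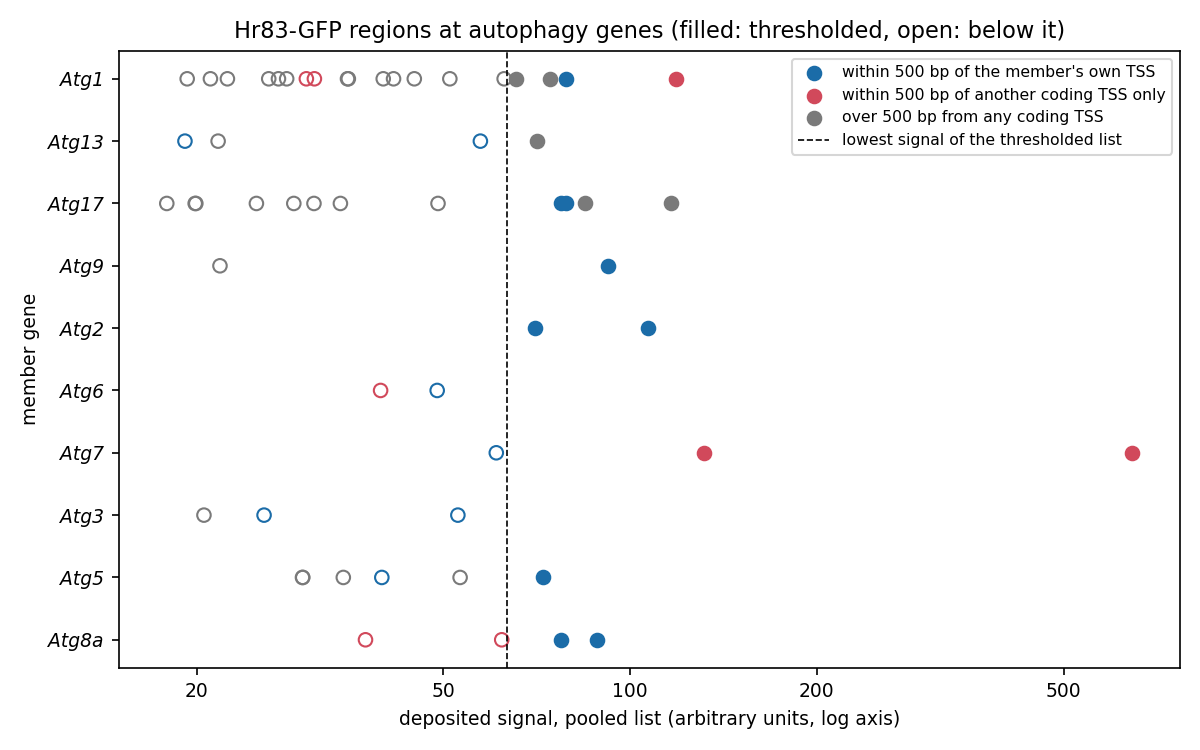
Deposited signal (log axis, arbitrary units) of every pooled Hr83-GFP region with a summit in an autophagy gene or within 1 kb of it, 1 row per gene. Filled circles are thresholded and open circles are not, the dashed line is the lowest thresholded signal of 63.3, and colours give the position relative to TSSs; the filled circles lie between 65.4 and 131 except that of Atg7 at 643.

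Across the 17 thresholded regions, each overlapped a region of both replicates, which is no independent evidence because the list was made from both. Below the threshold the pooled list held 40 further regions at the members, with signals of 17.9 to 62.7, and 11 of these overlapped no region of replicate 3 and 12 none of replicate 4. Among the thresholded regions, at 9 of the 17 the ranks in the replicates differed by more than 2 times. Replicate 3 ranked 10 higher and replicate 4 ranked 7 higher, and Spearman's rho between the ranks was 0.03 over the 17 regions. This rho is a description only, since neighbouring regions share chromatin and libraries and a pair of the Atg17 regions share 1 replicate 4 region. The 17 were also kept by their pooled signal, and 12 of them lay in the weaker part of the list, below its median. The positions were closer, with a median shift from the thresholded summit of 15 bp in replicate 3 and 11 bp in replicate 4. Both replicate summits lay within 100 bp of the thresholded summit at 14 of the 17. The widest shifts were 252 bp at Atg17 and 125 bp at Atg8a in replicate 4, and 109 bp at the Atg1 promoter in replicate 3. At 16 of the 17, a region of each replicate overlapped by at least 50% of both regions. Taking only the 4797 strongest regions of each replicate, 9 of the 17 were found in both. These replicate comparisons were not made over the complete lists, so whether they are particular to autophagy genes was not tested.

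**Figure D3:**
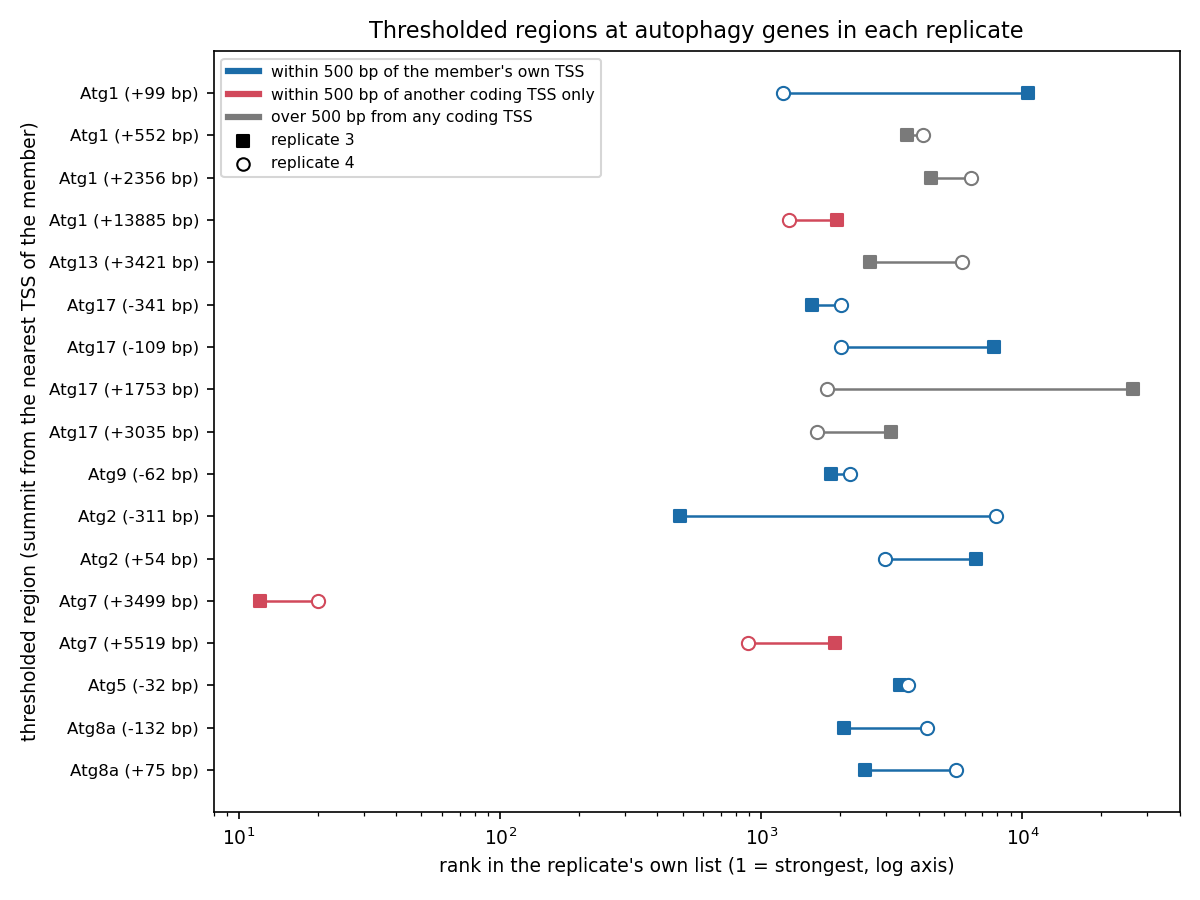
Rank of each of the 17 thresholded regions at autophagy genes in replicate 3 (filled squares) and replicate 4 (open circles), on a log axis with 1 the strongest; rows give the summit's distance from the nearest TSS of the member. The Atg7 region inside the gene ranks 12 and 20, while the Atg17 region at 1753 bp ranks 26480 and 1780 and the Atg2 region at -311 bp ranks 489 and 7946.

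Of the motifs searched, the DRE was found in the promoters of more members than any other. CACGTG and AGGTCA were in no thresholded window or promoter of a member, but few of all windows and promoters hold them, at shares given below. Both strands of 201 bp windows at the summits were searched, and of promoter windows from 250 bp upstream to 50 bp downstream of the first TSS. The DRE (TATCGATA) was found in 4 of the 10 member promoters, those of Atg3, Atg7, Atg13 and Atg17, against 9.37% of all protein-coding promoters. Of these 4, only Atg17 had a thresholded region within 500 bp of an own TSS. The share of head-to-head promoters with a DRE was not computed. At the thresholded summits it was found in 2 of 17 member windows, those at Atg8a and Atg17, against 6.50% of all thresholded windows. AAGTCA was in 2 of 17 windows (Atg2 and Atg8a) against 8.67%, and in 0 of 10 promoters against 16.2%. AGGTCA, shared by many nuclear receptors, was in 0 of 17 windows against 3.02%, and in 0 of 10 promoters against 5.89%. GAGAGAG was in 2 windows, both in Atg1, against 12.0%, and in 0 promoters against 5.87%. GTCACACT, known as Motif 1, was in 0 windows against 3.88% and in 1 promoter, of Atg8a, against 6.62%. GTAAACA, the FoxO-type site, was in 1 window, of Atg17, against 8.94%, and in 0 promoters against 9.24%. CACGTG, the E-box of lysosomal gene regulation by Mitf, was in 0 windows against 3.09% and in 0 promoters against 4.24%. A match is a description of letters and no evidence of binding by a factor. None of these motifs contains another. Median GC content was 44.3% in the member windows and 44.8% in all thresholded windows.

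Other genes of the pathway carried regions as well, and no test of a difference between the lists was made. Of 17 further autophagy genes, 9 (52.9%) had a thresholded region in the gene or within 1 kb, and 4 (23.5%) within 500 bp of an own TSS, against 32.6% and 24.2% of all protein-coding genes. The strongest lay at bchs (signal 297, rank 112), a large adaptor of selective autophagy, 450 bp from its TSS. Uvrag (193), which binds the lipid kinase complex, followed, with its region 3646 bp from its own TSS and 426 bp from that of CG31729. Atg18a (169), a lipid-binding partner of Atg2, had its region 62 bp from its own TSS. Atg16 (103), Tango5 (95.9), Pi3K59F (82.5, the lipid kinase Vps34), Rubicon (81.3) and Atg18b (64.8) came next. The Pi3K59F region lay 4280 bp from its own TSS and 119 bp from that of apt. That of Rubicon lay 4345 bp from its own TSS and 143 bp from that of CAH3, and that of Atg18b 5559 bp from its own. At the weakest end was Atg14 (63.7), with its summit 54 bp from its TSS. In 5 of the 9 genes the strongest region was nearest to the TSS of another coding gene. Without a thresholded region were Atg4a, Atg4b, Atg8b, Atg10, Atg12, Atg101, Vps15 and ref(2)P, the last the fly counterpart of the receptor p62.

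Of 20 genes of autophagosome fusion and the lysosome, 12 (60.0%) had a thresholded region and 9 (45.0%) had it within 500 bp of an own TSS. The shares of all protein-coding genes were 32.6% and 24.2%. The strongest lay at Vps33B (218), spin (210), Rab7 (168), Vamp7 (138), CtsL1 (134), dor (104), Syx17 (102) and Npc2a (96.8). At 10 of the 12 the strongest region was nearest to the TSS of another coding gene, and Syx17, the fusion protein of the autophagosome, and Vamp7, its partner on the lysosome, were the 2 exceptions. Some of the 10 were near-ties. The Vps16A summit lay 58 bp from its own TSS and 57 bp from that of TrpRS, and the Rab7 summit 56 bp from its own and 36 bp from that of Epp. The share over all called genes was not computed. Of 12 upstream regulators, 5 (41.7%) had a region in the gene or within 1 kb, against 32.6% of all protein-coding genes. Within 500 bp of an own TSS it was also 5 (41.7%), against 24.2%. The strongest regions lay at EcR (174), foxo (139), REPTOR (133), Sesn (110) and Rheb (76.2). No thresholded region was found at raptor, Tsc1, gig, AMPKalpha, Mitf, usp or Eip93F. These regulators had a median length of 15388 bp, against 4020 bp in the 10 members and 2166 bp in all protein-coding genes. Whether gene length bears on the counts of the regulators was not tested. Among genes with a region, the median signal of the strongest was 99.3 in the 10 members, against 106.6 in all protein-coding genes.

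**Figure D4:**
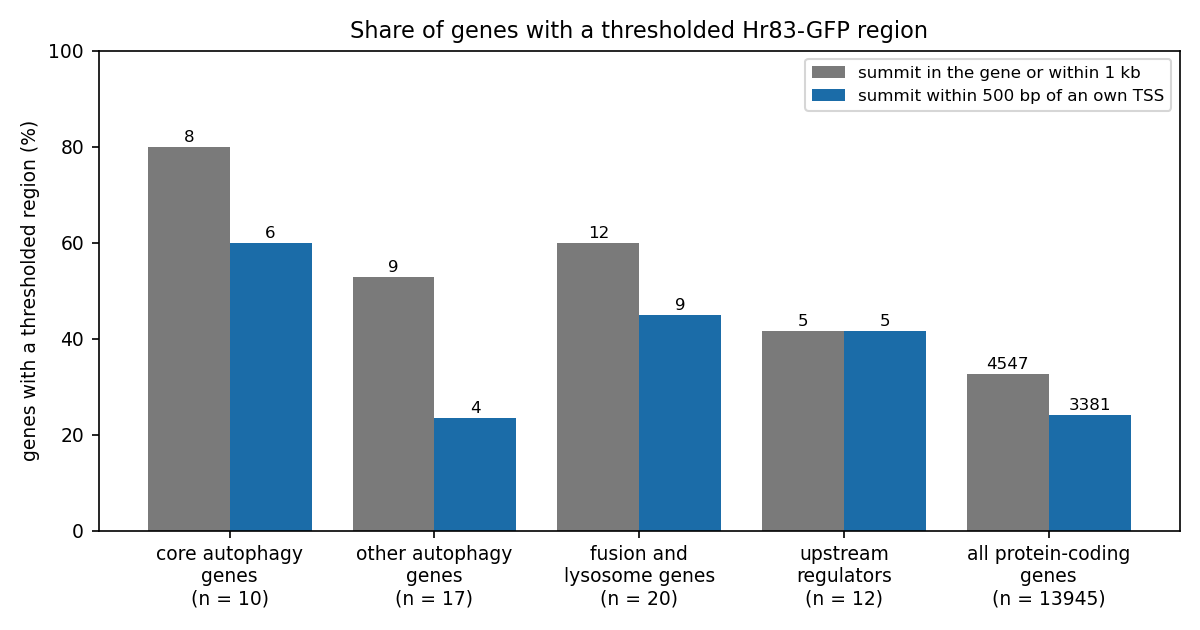
Share of genes (percent, bars from 0) with a thresholded Hr83-GFP summit in the gene or within 1 kb (grey) and within 500 bp of an own TSS (blue), with the number of genes above each bar. The 10 autophagy genes described here, labelled core in the figure, stand at 80.0% and 60.0%. The 17 other autophagy genes stand at 52.9% and 23.5%, and all 13945 protein-coding genes at 32.6% and 24.2%.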

How the data were processed

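ChIP-seq region lists on dm6 were used for 1 group with 2 replicates. Per the notes deposited with the samples, the authors called each replicate's list, and a list on both pooled, against a control alignment, and made the thresholded list by IDR from the 3. Neither aligner nor peak caller is given in the sources used here. Signal and −log10 q-value as deposited are the authors' values per region; signal served to rank regions, and lists were not normalized to each other. No list holds read counts, so depth is unknown.

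Summits (region start plus offset, 1-based) were placed against the Ensembl release 115 annotation and the RefSeq sequence of the same assembly: 0 regions ended past a chromosome, and 99.8% of annotated start codons read ATG. Scaffolds and the Y chromosome were left out. Python 3.11.15 with pandas 2.3.3 did the counting and matplotlib 3.10.9 the figures; the counting was checked on planted regions. A gene counts as called when a thresholded summit lies in it or within 1 kb. The members, lists and motifs were chosen with earlier results of these data known. All 10 members are named, as are other genes with a TSS within 1 kb of their thresholded summits and up to 8 called genes per further list, by signal; the rest were named after their values were seen. Of the list symbols, Tor and Vmp1 were not matched, and Vps34 was found as Pi3K59F. Lists on dm3 were not used. Alternatives were other gene windows, a window at TSSs, the 2398 strongest regions, 1 replicate at a time and other overlap rules; counting only summits nearest to a TSS of the gene itself was added after seeing the data.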

Additional observations from a re-analysis of the deposited data

How the results depend on the processing

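The count of 8 members with a thresholded region was 5 with no extension of the gene, when 13.7% of all protein-coding genes were called, and 4 with the 2398 strongest regions (19.9%). It was 7 from replicate 4 alone and 9 from replicate 3 alone (31.6% and 32.0% of all protein-coding genes). It was 8 with 500 bp on each side of the gene (29.3%), 8 with 2 kb (38.1%) and 9 with 5 kb (50.6%). It was 6 within 1 kb of a TSS (27.3%) and 7 when a summit had to be nearest to a TSS of the gene itself (21.5% of all protein-coding genes). From replicate 3 alone Atg6 and Atg13 were called, and from replicate 4 alone they were not; Atg3 was called in none of these. The 17 regions became 10 with no extension or within 1 kb of a TSS, 5 among the 2398 strongest, and 13 to 19 from 1 replicate; with the 4797 strongest of each replicate, 9 were shared. The 9 of 17 further autophagy genes became 4 with no extension (13.7% of all protein-coding genes) and 14 in a 5 kb window (50.6%). They were 5 with the 2398 strongest (19.9%), 5 by nearest TSS (21.5%) and 8 to 10 from 1 replicate. Within 1 kb of a TSS they were 5, close to the share of all protein-coding genes (27.3%). The 12 of 20 fusion and lysosome genes became 2 with no extension and 4 by nearest TSS. Both counts are below the shares of all protein-coding genes by the same rules (13.7% and 21.5%). From 1 replicate the fusion and lysosome genes called were 11 to 13. The 5 of 12 regulators gave 4 from either replicate, close to the shares of all protein-coding genes (31.6% and 32.0%). No paired analysis was possible because the series has 1 group. Depth is unknown, so a missing region may lie below what these libraries could list.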
